A study of Mus musculus with 3 samples.

Results

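Genes that make, remove or sense extracellular ATP and adenosine were followed through the immune cells of inflamed pancreatic islets. They were chosen by name for their roles in this pathway and are 7 of the 32285 genes in the files. Entpd1 and Nt5e encode the ectoenzymes CD39 and CD73, and Adora2a and Adora2b encode adenosine receptors that raise cAMP. Ada encodes adenosine deaminase, Dpp4 encodes CD26, which binds that enzyme on human T cells, and P2rx7 encodes an ATP-gated channel. Live CD45+ cells were sorted from dispersed islets of female wild-type NOD mice, the inbred strain that develops autoimmune diabetes without any treatment. Each of 3 libraries held pooled cells of 2 to 3 mice aged 15 to 16 weeks by the methods, with a lower limit of 14 weeks given elsewhere in the study. The libraries came from 2 independent experiments, and there was 1 group, with no treated or otherwise changed animals. Every comparison below is therefore between kinds of cell within the same 3 libraries. The p-values set these differences against variation from library to library, after the level common to each library is taken out.

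Extracellular ATP is released by stressed and dying cells and alarms the immune system. CD39 cuts ATP and ADP to AMP, and CD73 cuts AMP to adenosine, which quiets T cells through cAMP. Adenosine deaminase turns adenosine into inosine and so ends the signal, and on human T cells it is held at the surface by CD26. P2X7, the product of P2rx7, opens at high ATP, and in mouse T cells NAD opens it through the enzyme encoded by Art2b, which can kill the cell. Tregs, which carry much CD39 and CD73 in mice, and anergic CD4+ T cells, which carry much CD73, are the usual examples of cells that make adenosine.

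Sequences before the RefSeq starts of Entpd1 and Nt5e are shown because these enzymes act in sequence and their levels differed in the comparisons below. RefSeq promoters on GRCm38.p6 matched 6 of the 7 members with 8 start sites, and Adora2a had no entry. Entpd1 lies at chr19:40612366-40741602 on the plus strand and Nt5e at chr9:88327197-88372092 on the plus strand (GRCm38). Each sequence is the 250 bases before an annotated start, 5′ to 3′, at chr19:40612116-40612365 and chr19:40659520-40659769 for the starts of Entpd1 and at chr9:88327359-88327608 for Nt5e, all on the plus strand. The Nt5e stretch and the downstream Entpd1 stretch lie inside the gene bounds above, which come from another annotation (GENCODE). Capitals mark every match on either strand to the core of the cAMP response element, which reads TGACG. They also mark every match on either strand to the GC box, which reads GGGCGG.
Entpd1, upstream start: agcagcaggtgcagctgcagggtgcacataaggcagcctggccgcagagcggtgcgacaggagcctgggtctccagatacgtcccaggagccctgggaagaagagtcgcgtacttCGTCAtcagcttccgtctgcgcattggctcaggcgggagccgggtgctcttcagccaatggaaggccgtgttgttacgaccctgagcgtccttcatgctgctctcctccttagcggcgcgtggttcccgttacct
Entpd1, downstream start: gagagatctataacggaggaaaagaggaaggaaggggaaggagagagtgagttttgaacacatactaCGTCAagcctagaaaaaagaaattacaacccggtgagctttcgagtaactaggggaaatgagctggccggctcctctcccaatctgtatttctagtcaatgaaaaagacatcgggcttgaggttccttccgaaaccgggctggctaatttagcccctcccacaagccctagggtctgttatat
Nt5e: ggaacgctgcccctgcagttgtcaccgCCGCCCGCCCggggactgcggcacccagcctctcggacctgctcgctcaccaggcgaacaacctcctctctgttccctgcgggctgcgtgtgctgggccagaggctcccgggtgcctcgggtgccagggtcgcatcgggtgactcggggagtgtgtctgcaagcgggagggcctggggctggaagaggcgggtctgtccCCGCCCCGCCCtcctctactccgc
Each Entpd1 start had 1 cAMP core and no GC box, and the Nt5e start had 4 GC boxes, which overlap in pairs, and no cAMP core. Over 32851 mouse promoters of this length, 17.8% held the cAMP core and 32.7% the GC box. GC content was 62.4% and 47.2% at the starts of Entpd1 and 72% at Nt5e, against a median of 52.4% over all promoters. A match only says that these letters stand there.

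The remaining members lie at chr10:75316877-75334784 (Adora2a, plus strand), chr11:62248984-62266453 (Adora2b, plus), chr2:163726584-163750239 (Ada, minus), chr2:62330073-62412231 (Dpp4, minus) and chr5:122643911-122691432 (P2rx7, plus). Levels are unique molecular identifiers (UMIs, counted molecules) per 1000000 UMIs of a class (CPM), and since only 3′ ends were counted, CPM were compared between cells and not between genes. Values after ± are the SD over the 3 libraries (n = 3), except for log2 differences, where they are the standard error of the edgeR fit. Ranges said to be apart or to overlap run over the same 3 libraries. No share of all genes with ranges apart is given beside them, so they only describe the members.

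The libraries held 5844, 9537 and 11566 cell barcodes with medians of 4230, 6415 and 5521 UMIs. Marker UMIs placed 3199 cells among CD8+ T cells, 5858 among CD4+ T cells without Foxp3, 1612 among Foxp3+ Tregs, 4936 among B cells and 68 among macrophages, and 10469 cells that passed the limits on UMIs and mitochondrial reads met no class. The gates set their own genes, so the names were checked on the listed markers that no gate used. The 3 such T cell markers summed to between 1765 and 2796 CPM in the T cell classes and to at most 76.1 CPM elsewhere, and the 5 such macrophage markers to between 3345 and 10381 CPM in macrophages and to at most 183 CPM elsewhere. Signal from other cells was present. The 4 B cell markers, all detected, summed to between 333 and 703 CPM in Tregs, 228 to 423 in CD4+ T cells and 100.3 to 258 in CD8+ T cells, against 2797 to 3231 in B cells. Cells with the highest doublet scores made up 16.01% of Tregs, 9.82% of CD4+ T cells and 8.66% of CD8+ T cells. Macrophages numbered only 31, 10 and 27 cells a library, and their 5 endocrine markers summed to between 7.93 and 1372 CPM. Libraries 1, 2 and 3 shared 59 barcodes in all their pairs together.

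Entpd1 was highest in macrophages, overlapping between the T cell classes and low in B cells. It stood at 63.4, 135 and 111 CPM in the macrophages of libraries 1, 2 and 3. In CD8+ T cells it was at 26.9, 27.2 and 20.4 CPM, in Tregs at 28.2, 19.7 and 22.2 CPM, and in CD4+ T cells at 24.9, 21.0 and 14.8 CPM, so that these neighbours overlapped. B cells had 12.98, 7.68 and 9.39 CPM, below every T cell value. The level of macrophages was 4.52-fold that of the mean of the T cell classes (log2 2.18 ± 0.31, edgeR adjusted p = 4.04e-05), or 2.70 on the log2 scale above the median of all genes, which was itself -0.53 in this contrast, and 9.54-fold that of B cells (adjusted p = 2.18e-06). In B cells it was 2.11-fold lower than in T cells (log2 -1.08 ± 0.16, edgeR adjusted p = 2.64e-05). After each cell was thinned to 2000 UMIs, 16.4% of macrophages, 4.39% of Tregs, 4.10% of CD8+ T cells, 3.87% of CD4+ T cells and 1.53% of B cells had an Entpd1 UMI. Without thinning these shares were 46.6%, 15.3%, 10.2%, 9.76% and 4.98%. All are means over the libraries. The unthinned macrophage shares were 29.0%, 70% (7 of 10 cells) and 40.7% in libraries 1, 2 and 3, or 39.7% of the 68 cells pooled.

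Nt5e followed another order, with Tregs at the top and no UMI in macrophages. Tregs had 68.3, 69.5 and 81.8 CPM, CD4+ T cells 60.8, 50.6 and 49.4 CPM, CD8+ T cells 34.9, 17.4 and 23.7 CPM, and B cells 9.95, 7.39 and 7.55 CPM. The ranges of these classes did not overlap. Macrophages had 0 of 558022 UMIs and 0 of 68 cells, which allows a share of cells with a UMI of up to 4.41% by the limit of 3 counts (5.28% by the exact 95% interval), and against a floor of 3 UMIs over the group their level was at least 13.99-fold lower than in Tregs, at least 9.56-fold lower than in CD4+ T cells and at least 4.28-fold lower than in CD8+ T cells. Nt5e was 2.71-fold higher in Tregs than in CD8+ T cells (log2 1.44 ± 0.15, edgeR adjusted p = 1.62e-05), 2.05-fold lower in CD8+ than in CD4+ T cells (log2 -1.03 ± 0.14, edgeR adjusted p = 0.000319) and 5.13-fold lower in B cells than in T cells (log2 -2.36 ± 0.14, edgeR adjusted p = 7.40e-09). Between Tregs and CD4+ T cells the difference missed the threshold (log2 0.40 ± 0.14, edgeR adjusted p = 0.113), although the ranges were apart. That call depended on the processing, since the adjusted p ran from 0.00131 to 0.731 over the alternatives tried. Thinned shares of cells with a UMI were 13.3% of Tregs, 8.74% of CD4+ T cells, 4.05% of CD8+ T cells and 1.20% of B cells, and unthinned ones 33.9%, 20.5%, 11.7% and 3.72%. For reference, the B cell gene Cd79b reached 9.49% of Tregs, 4.86% of CD4+ and 4.05% of CD8+ T cells on the same thinned scale.

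Adora2a, the receptor that carries most adenosine signals in T cells, had nearly the same order as Nt5e among lymphocytes. Its level was 56.0, 68.7 and 68.0 CPM in Tregs, 57.5, 50.9 and 56.6 CPM in CD4+ T cells, 36.8, 34.4 and 43.0 CPM in CD8+ T cells and 15.0, 11.94 and 12.05 CPM in B cells. Tregs and CD4+ T cells overlapped, and their difference missed the threshold (log2 0.17 ± 0.12, edgeR adjusted p = 0.554). CD8+ T cells were 1.33-fold below CD4+ T cells (log2 -0.42 ± 0.12, edgeR adjusted p = 0.0375) and Tregs 1.496-fold above CD8+ T cells (log2 0.58 ± 0.13, edgeR adjusted p = 0.00436). The first of these calls was lost without library 2 or 3, and the other without library 2. B cells were 3.65-fold below T cells (log2 -1.87 ± 0.12, edgeR adjusted p = 2.02e-09). In macrophages, 11 UMIs gave 5.29, 15.9 and 32.97 CPM, 2.64-fold below T cells (log2 -1.40 ± 0.38, edgeR adjusted p = 0.00896; -0.87 relative to the median of all genes), a call that was lost without library 1.

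Adora2b, the receptor with lower affinity for adenosine, was near the detection limit in every lymphocyte class and higher in macrophages. Macrophages had 8 Adora2b UMIs, at 5.29, 15.9 and 20.6 CPM. Over the pooled libraries this was 13.8 times the level of Tregs (95% interval 5.21 to 33.5, 18 UMIs in Tregs), 56.0 times that of CD4+ T cells (19.5 to 153, 11 UMIs) and 46.9 times that of CD8+ T cells (15.3 to 143, 8 UMIs), intervals that cover counting error only. Adora2b passed the count filter only through macrophages, the class where it was high, so its edgeR calls are not used as support. Lymphocytes stayed at or under 1.38 CPM in each library. An Adora2b UMI was found in at most 0.764% of the cells of a lymphocyte class on average over libraries, against 8.11% of macrophages, without thinning.

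Ada and Dpp4 were higher in CD8+ T cells than in CD4+ T cells or Tregs. Ada was at 21.4, 12.95 and 13.6 CPM in CD8+ T cells, 7.74, 8.17 and 7.44 CPM in Tregs and 6.80, 5.23 and 3.86 CPM in CD4+ T cells. CD8+ T cells had 3.201-fold the level of CD4+ T cells (log2 1.68 ± 0.24, edgeR adjusted p = 0.000193), and Tregs were 2.13-fold below CD8+ T cells (log2 -1.09 ± 0.25, edgeR adjusted p = 0.00688), the latter call being lost without library 3. Tregs and CD4+ T cells did not overlap, but their difference missed the threshold (log2 0.59 ± 0.27, edgeR adjusted p = 0.271). B cells spread from 6.40 to 18.9 CPM, and their difference from T cells missed the threshold (log2 0.41 ± 0.19, edgeR adjusted p = 0.0790). Of the 382 Ada UMIs of B cells, 221 lay in the 136 cells with 5 or more UMIs of the plasma cell gene Jchain, and without those cells Ada was lower in B than in T cells (log2 -0.73, edgeR adjusted p = 0.0137). With all B cells but without library 2, Ada was called higher in B than in T cells (log2 0.73, edgeR adjusted p = 0.00823). Macrophages had 11 Ada UMIs, at 21.1, 0 and 28.8 CPM (log2 1.115 against T cells, edgeR adjusted p = 0.207; without library 2, 1.53 and 0.0394).

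Dpp4 stood at 35.4, 41.5 and 44.2 CPM in CD8+ T cells, 27.4, 20.4 and 20.3 CPM in CD4+ T cells, 19.1, 23.8 and 25.5 CPM in Tregs and 25.5, 23.7 and 16.3 CPM in B cells. CD8+ T cells lay above all the other lymphocytes, which overlapped among themselves. The level in CD8+ T cells was 1.99-fold that of CD4+ T cells (log2 1.00 ± 0.16, edgeR adjusted p = 0.000722), and Tregs were 1.97-fold below CD8+ T cells (log2 -0.98 ± 0.18, edgeR adjusted p = 0.000991). Without library 2 the first of these missed the threshold (adjusted p = 0.0506). In B cells the difference from T cells was log2 -0.23 (edgeR adjusted p = 0.166), and macrophages had 7 UMIs.

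P2rx7 was low in B cells and overlapped between T cells and macrophages. Its level was 17.3, 17.4 and 15.4 CPM in Tregs, 21.6, 9.81 and 10.1 CPM in CD4+ T cells, 10.1, 6.99 and 6.41 CPM in CD8+ T cells and 1.70, 0.853 and 1.53 CPM in B cells. Tregs had 1.97-fold the level of CD8+ T cells (log2 0.98 ± 0.24, edgeR adjusted p = 0.0112), a call lost without library 2 or 3. CD4+ T cells overlapped with each of them. B cells were 8.35-fold below T cells (log2 -3.06 ± 0.27, edgeR adjusted p = 1.10e-07). In macrophages, 16 UMIs gave 5.29, 39.6 and 41.2 CPM, 19.9-fold above B cells (adjusted p = 0.000182) and not past the threshold against T cells (log2 1.26 ± 0.54, edgeR adjusted p = 0.0850).

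**Figure D1:**
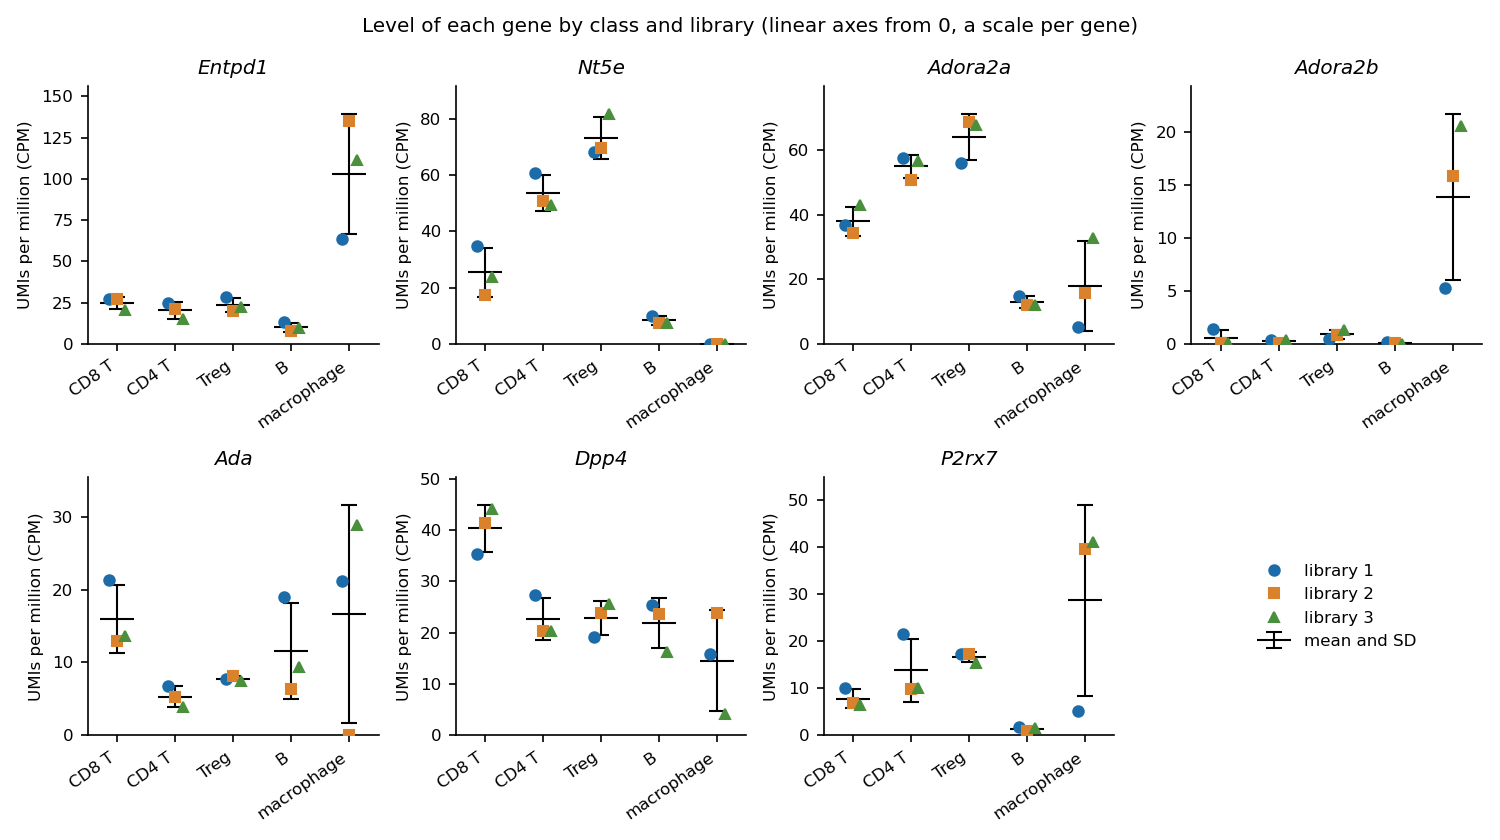
Level of each of the 7 genes (y axis, CPM, linear from 0 with a scale of its own per gene) in 5 cell classes (x axis); coloured points are the 3 libraries and black bars the mean and SD. Entpd1 and Adora2b sit highest in macrophages, Nt5e and Adora2a highest in Tregs and CD4 T cells, and Ada and Dpp4 in CD8 T cells lie above CD4 T cells and Tregs.

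By count, 4 of the 7 members differed between CD8+ and CD4+ T cells (2 higher, 2 lower, against 11.2% of all genes tested) and 5 of 7 between Tregs and CD8+ T cells (3 higher, 2 lower, against 16.7%). Between Tregs and CD4+ T cells 0 of 7 did, against 5.77%, and 0 were called by DESeq2. In edgeR 3 stood at an unadjusted p under 0.05 (Nt5e, Ada and Adora2b), of which Adora2b passed the count filter only through macrophages. B cells differed from T cells in 4 of 7 members, all lower, where 56.8% of all genes were called. Macrophages differed from T cells in 4 of 7 (2 higher, 2 lower, against 35.9%) and from B cells in 4 of 7 (3 higher, 1 lower, against 36.0%). Adora2b had to be among the higher ones, and without it 3 of 6 were called in each. The call of Nt5e against B cells (edgeR adjusted p = 0.0446) was lost without any 1 library. Of all genes called in these macrophage contrasts, 42.0% and 42.8% were higher in macrophages, and 54.97% and 59.2% of those called by DESeq2. These contrasts share their sums and are not independent of each other. In such sums, fewer cells with a gene and less of its RNA per cell cannot be told apart.

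Pdcd1, which encodes the inhibitory receptor PD1, marks T cells that have met antigen, and T cells were split by whether they held a Pdcd1 UMI. In CD8+ T cells, Entpd1, Nt5e and Adora2a were all higher with Pdcd1. Entpd1 was at 37.5, 59.1 and 36.0 CPM in the 1066 Pdcd1+ cells against 16.7, 11.5 and 11.5 CPM in the 2133 Pdcd1- cells, with no overlap and a 3.10-fold difference (log2 1.63 ± 0.23, edgeR adjusted p = 0.000119). Adora2a was at 43.1, 53.5 and 63.8 CPM against 30.7, 25.01 and 31.2 CPM, again apart, a 1.68-fold difference (log2 0.75 ± 0.15, edgeR adjusted p = 0.00231). For Nt5e, 39.3, 30.3 and 38.0 CPM stood against 30.7, 11.1 and 15.6 CPM; these ranges overlapped through library 1, and the 1.88-fold difference (log2 0.91 ± 0.23, edgeR adjusted p = 0.0131) rested on the comparison within libraries. In all, 3 of the 6 members tested were called, all higher, against 13.7% of genes. Without library 2 or 3 the calls of Nt5e and Adora2a were lost, and that of Entpd1 was kept.

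CD4+ T cells without Foxp3 had the same 3 genes higher with Pdcd1. Entpd1 was at 34.6, 38.3 and 22.7 CPM in 2003 Pdcd1+ cells and at 19.4, 9.41 and 9.36 CPM in 3855 Pdcd1- cells, a 2.40-fold difference (log2 1.27 ± 0.22, edgeR adjusted p = 0.000519). Nt5e was at 74.0, 74.2 and 78.0 against 53.3, 34.8 and 29.7 CPM (log2 0.85 ± 0.18, edgeR adjusted p = 0.00290), and Adora2a at 70.2, 79.5 and 85.7 against 50.3, 31.8 and 36.7 CPM (log2 0.88 ± 0.13, edgeR adjusted p = 0.000161). The ranges were apart for each of these genes. Dpp4 was lower, at 23.1, 15.99 and 19.1 against 29.8, 23.3 and 21.1 CPM (log2 -0.55 ± 0.15, edgeR adjusted p = 0.0141), with overlapping ranges. Thus 4 of 6 members tested were called, 3 higher and 1 lower, against 15.6% of genes. The calls of Nt5e and Dpp4 were lost without library 2 or 3.

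In Tregs no member passed the test between cells with and without Pdcd1. Entpd1 was at 24.2, 19.4 and 26.1 CPM in 888 Pdcd1+ Tregs and at 32.0, 20.3 and 14.7 CPM in 724 Pdcd1- Tregs (log2 0.17 ± 0.28, edgeR adjusted p = 0.910). Nt5e was at 53.2, 70.4 and 94.2 against 82.7, 67.5 and 57.9 CPM, in opposite directions in libraries 1 and 3. None of 6 members was called by edgeR or DESeq2 or stood at an unadjusted p under 0.05, where 0.511% of genes were called. The test of the difference between Tregs and CD4+ T cells did not pass either, with log2 -1.10 ± 0.36 for Entpd1 (edgeR adjusted p = 0.218), -0.70 ± 0.27 for Nt5e (0.341) and -0.63 ± 0.20 for Adora2a (0.214). It called 0 of 6 members, 3 of them at an unadjusted p under 0.05 and 0 in DESeq2, and 0.353% of genes. The Pdcd1 difference of CD8+ T cells minus that of CD4+ T cells likewise called 0 of 6, with 0 at an unadjusted p under 0.05 and 0 in DESeq2, against 0.0186% of genes. For Tregs against CD4+ T cells the outcome depended on the processing. With no count filter edgeR called Entpd1 (adjusted p = 0.000424), Nt5e (adjusted p = 0.00315) and Adora2a. Adora2a was also called without library 1.

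Depth and the sums of several marker lists moved with the Pdcd1 split. Pdcd1+ cells had more UMIs than Pdcd1- cells in every class and library, for example medians of 4720, 7330.5 and 6459.5 against 4519, 6133.5 and 5228 in CD4+ T cells. All 3 plasma cell markers were detected, and they summed to between 388 and 929 CPM in Pdcd1+ against 91.0 to 268 CPM in Pdcd1- CD4+ T cells. In CD8+ T cells they did not move 1 way, at 73.8, 78.1 and 825 CPM against 331 to 349 CPM. Of the 5 Treg markers 4 were detected, with Foxp3 at 0 by the gates, and they summed to between 1013 and 1132 against 555 to 902 CPM in CD4+ T cells and to between 656 and 816 against 394 to 555 CPM in CD8+ T cells. Over all CD8+ T cells these were mainly Tnfrsf18, Ikzf2 and Ctla4, at 229, 187 and 141 CPM, with Il2ra at 5.97 CPM. Of the 5 dendritic cell markers, 4 were detected in Pdcd1+ CD8+ T cells, with Clec9a at 0, and the list was lower there, at 331 to 447 against 512 to 621 CPM. Over all CD8+ T cells this list was nearly all Ccr7, at 496 CPM against 1.88 CPM for Flt3, the next highest. The part of these markers and of depth in the results was not tested.

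**Figure D2:**
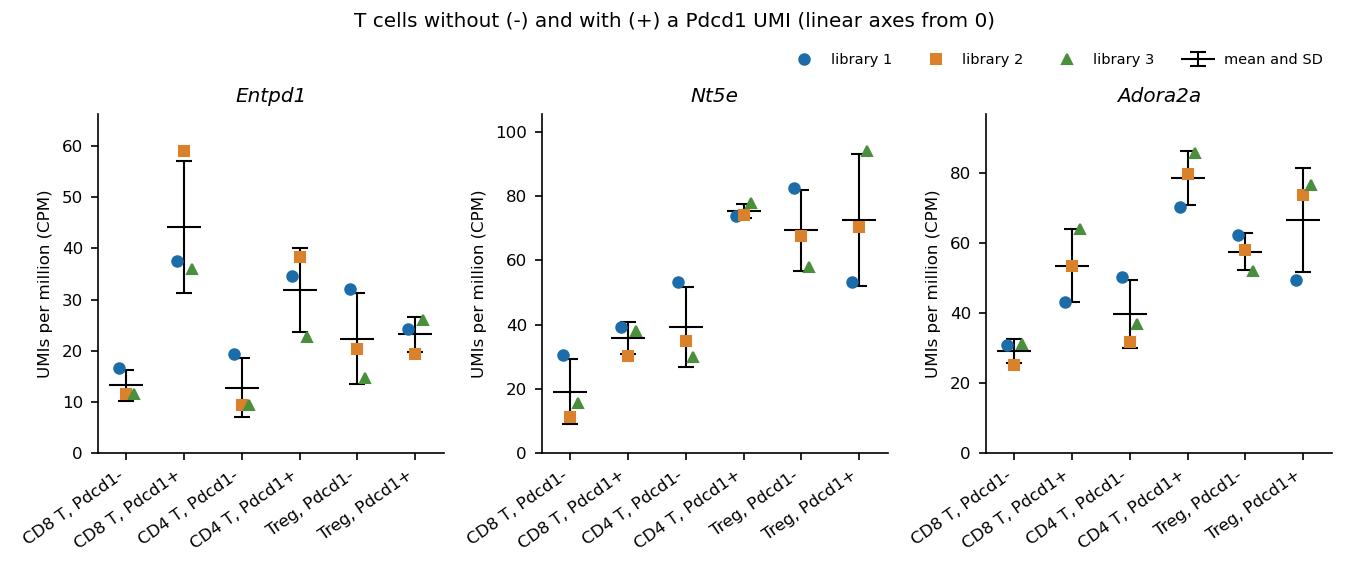
Levels of Entpd1, Nt5e and Adora2a (y axes, CPM, linear from 0) in CD8 T cells, CD4 T cells and Tregs without (-) and with (+) a Pdcd1 UMI (x axis); points are the 3 libraries, black bars the mean and SD. In CD8 and CD4 T cells the points lie higher with Pdcd1 in each library, and in Tregs they cross.

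Within Pdcd1+ CD8+ T cells, Tcf7 was used for a further split, and Entpd1 was the only member that passed the test. The study named stem-like memory cells by Tcf7 with Tox and Pdcd1, and also found Tcf7 in effector and transitioning cells. Entpd1 was at 68.0, 109 and 66.5 CPM in the 579 cells without a Tcf7 UMI and at 3.93, 13.6 and 7.24 CPM in the 487 cells with one, an 8.95-fold difference (log2 3.16 ± 0.19, edgeR adjusted p = 3.30e-10). An Entpd1 UMI was found in 30.9%, 37.2% and 22.7% of Tcf7- cells and in 4.08%, 7.93% and 4% of Tcf7+ cells. Tcf7+ cells had more UMIs (medians of 7449, 10018.5 and 7416 against 5363, 7575.5 and 6803.5), and the part of depth was not tested. The call was kept under every alternative, with log2 values between 3.01 and 4.27. It was 1 of 6 members tested, against 5.87% of genes.

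The other members did not pass this test. Nt5e was at 24.2, 32.5 and 34.8 CPM in Tcf7- against 55.9, 28.2 and 41.0 CPM in Tcf7+ cells (log2 -0.38 ± 0.20, edgeR adjusted p = 0.341). Adora2a was at 38.5, 49.6 and 61.9 against 48.1, 57.0 and 65.6 CPM (log2 -0.22, edgeR adjusted p = 0.443), and Dpp4 at 24.2, 37.2 and 33.8 against 35.3, 47.2 and 48.2 CPM (log2 -0.50 ± 0.16, edgeR adjusted p = 0.0643). Tcf7- cells thus had more Entpd1, while no difference in Nt5e passed the test. The 3 plasma cell markers summed to 1502 CPM in the Tcf7- cells of library 1, through Jchain, and to 59.9 and 73.8 CPM in those of the other two, against 82.0 to 86.8 CPM in Tcf7+ cells. Entpd1 in Tcf7- against Tcf7+ cells was at 68.0 against 3.93, 109 against 13.6 and 66.5 against 7.24 CPM in libraries 1, 2 and 3. Of the 7 macrophage markers, C1qa, C1qb and Adgre1 were at 0 in Tcf7+ cells, and the list summed to between 17.0 and 87.4 CPM in Tcf7- and 13.7 to 20.3 CPM in Tcf7+ cells. The dendritic cell list, with Clec9a at 0 on each side, summed to between 199.6 and 315 against 469 to 572 CPM. Over all CD8+ T cells that list was nearly all Ccr7, at 496 CPM. The part of these lists was not tested.

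Izumo1r, which encodes folate receptor 4, a surface marker used with CD73 for anergic CD4+ T cells, was used to split CD4+ T cells. Among the classes Izumo1r was highest in Tregs, at 210 CPM against 106 CPM in CD4+ T cells. Nt5e was at 72.7, 79.3 and 76.1 CPM in 1738 Izumo1r+ cells and at 46.7, 36.1 and 35.7 CPM in 4120 Izumo1r- cells, a 1.96-fold difference (log2 0.97 ± 0.08, edgeR adjusted p = 4.29e-05). Adora2a was at 61.8, 67.6 and 74.8 against 52.4, 42.4 and 47.3 CPM (log2 0.53 ± 0.08, edgeR adjusted p = 0.00134). Each gene had ranges that were apart. Entpd1 was at 22.4, 21.7 and 17.6 against 27.9, 20.6 and 13.4 CPM (log2 0.06 ± 0.13, edgeR adjusted p = 0.824), and P2rx7 at 25.6, 12.8 and 11.6 against 16.8, 8.31 and 9.31 CPM (log2 0.46 ± 0.14, edgeR adjusted p = 0.0587). So 2 of 6 members were called, each higher, against 11.3% of genes. Izumo1r+ cells were deeper, with medians of 5217, 8118.5 and 7157 against 4111, 6102.5 and 5212.5 UMIs, and their plasma cell markers summed to between 301 and 839 against 112 to 435 CPM. Of the 5 Treg markers 4 were detected, with Foxp3 at 0 by the gate, and summed to between 988 and 1159 CPM in Izumo1r+ against 609 to 778 CPM in Izumo1r- cells. The part of depth and of these markers was not tested.

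B cells without a UMI of Ighd, the IgD heavy chain of naive B cells, had more of most members. In the 1285 cells without an Ighd UMI, Ada was at 35.1, 11.9 and 23.0 CPM against 9.69, 4.89 and 3.38 CPM in 3651 Ighd+ cells (log2 1.99 ± 0.23, edgeR adjusted p = 0.000248). Entpd1 was at 23.9, 14.9 and 20.3 against 6.71, 5.70 and 4.56 CPM (log2 1.83 ± 0.19, edgeR adjusted p = 0.000132), and Nt5e at 16.9, 13.9 and 17.7 against 5.96, 5.61 and 3.09 CPM (log2 1.76 ± 0.23, edgeR adjusted p = 0.000654). Adora2a was at 20.3, 18.2 and 15.7 against 11.9, 10.2 and 10.4 CPM (log2 0.79 ± 0.15, edgeR adjusted p = 0.00513), a call lost without library 1. Of the 5 members tested 4 were called, all higher, against 10.6% of genes called. These 4 also had ranges that were apart, for which no share over all genes is given. Dpp4 was at 21.8, 19.2 and 9.004 against 27.6, 24.98 and 19.6 CPM (log2 -0.47 ± 0.16, edgeR adjusted p = 0.0913).

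Plasma cell markers stood far apart in this split, summing to between 1814 and 6921 CPM in Ighd- and 203 to 600.2 CPM in Ighd+ cells, with all 3 detected. The 7 macrophage markers, all detected, did so too, at 281 to 539 against 75.3 to 123 CPM, and their part was not tested. Over all B cells this list was mostly Apoe, at 162 CPM against 6.93 CPM for Cd68, the next highest. Cells with 5 or more Jchain UMIs, a limit set after seeing the data, had Ada at 77.9 ± 5.56 CPM and Entpd1 at 44.1 ± 4.19 CPM, against 5.41 ± 4.03 and 6.91 ± 1.59 CPM in the rest. Adora2a went the other way, at 3.61 against 13.97 CPM. With those cells left out, Entpd1 and Ada lost their calls in the Ighd split (Entpd1 log2 0.92, edgeR adjusted p = 0.0583; Ada log2 1.01), and the called genes fell to 360.

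**Figure D3:**
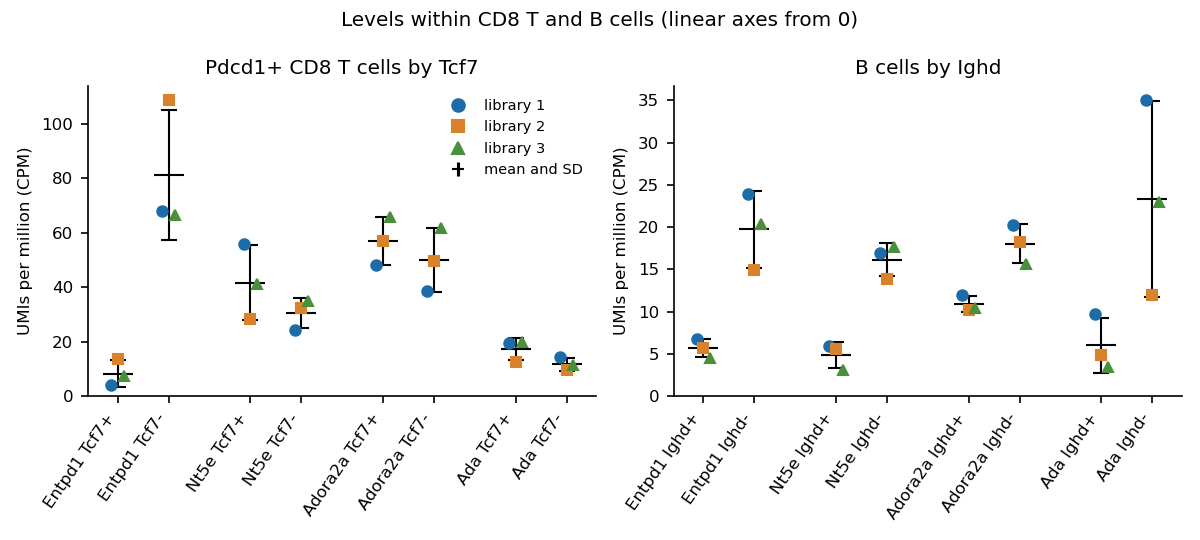
Levels of Entpd1, Nt5e, Adora2a and Ada (y axes, CPM, linear from 0) in Pdcd1+ CD8 T cells with and without a Tcf7 UMI (left) and in B cells with and without an Ighd UMI (right); points are the 3 libraries, black bars the mean and SD. On the left only Entpd1 has ranges far apart, and on the right all 4 genes are higher without Ighd.

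**Figure D4:**
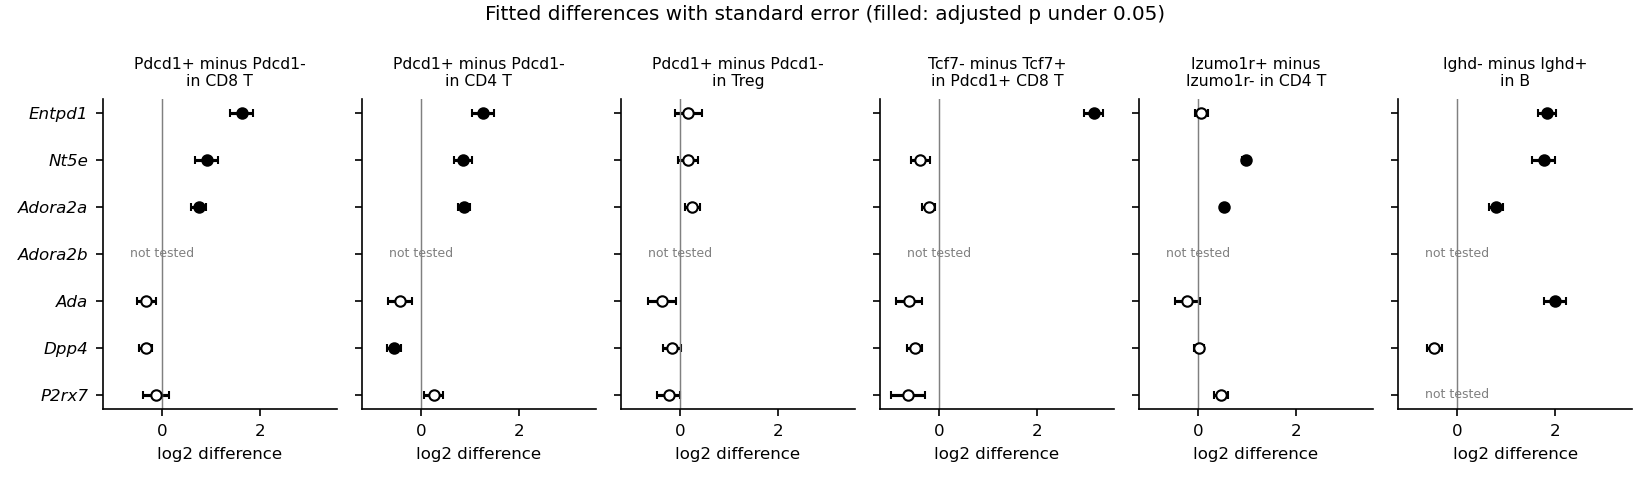
Log2 differences (x axis) of each member tested (y axis) in the 6 within-class comparisons, with bars of 1 standard error from the edgeR fit; filled points have an adjusted p under 0.05. Entpd1 reaches 3.16 in the Tcf7 split and is near 0 in Tregs and in the Izumo1r split, where Nt5e and Adora2a have filled points.

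Whether CD39 and CD73 messages were found in the same cells was asked with each cell thinned to 2000 UMIs. In Pdcd1- CD4+ T cells, Nt5e was found in 15.96 ± 4.67% of cells with Entpd1 and in 6.29 ± 2.51% of cells without it. The difference was 12.2, 7.99 and 8.84 percentage points in libraries 1, 2 and 3, and 12.9 cells held both messages where independence would give 5.25. Pdcd1+ CD4+ T cells went the other way, with Nt5e in 7.15 ± 3.88% of Entpd1 cells and 13.4 ± 1.42% of other cells. Here the differences were -4.39, -9.07 and -5.28 points, and 6.97 cells held both where independence would give 14.5. The gap between these differences was 15.9 ± 1.58 points in 3 of 3 libraries, and an exact two-sided sign-flip test gave p = 0.25, the smallest that 3 libraries allow.

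Without thinning, 62 Pdcd1- CD4+ T cells held both messages where independence would give 31.7, with differences of 18.1, 15.4 and 12.3 points. Among Pdcd1+ cells 70 did where it would give 94.6, but the differences were -0.83, -20.5 and -1.55 points, so that on this scale the deficit lay almost wholly in library 2. In Pdcd1+ CD8+ T cells the thinned differences were -7.07, -2.80 and -2.54 points, and in Pdcd1- CD8+ T cells -4.51, 1.47 and 1.18 points. Over whole classes after thinning, the cells with both numbered 2.94 where independence would give 4.60 in CD8+ T cells. They numbered 19.9 against 16.6 in CD4+ T cells, 9.24 against 8.65 in Tregs and 1.47 against 0.941 in B cells. Unthinned, 38 CD8+ T cells held both where independence would give 33.7, the other way from the thinned values. Split by Pdcd1, these were 22 against 32.8 in Pdcd1+ and 16 against 8.80 in Pdcd1- CD8+ T cells. None of these sets of few cells was large, and sign-flip tests over 3 libraries cannot pass 0.05.

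**Figure D5:**
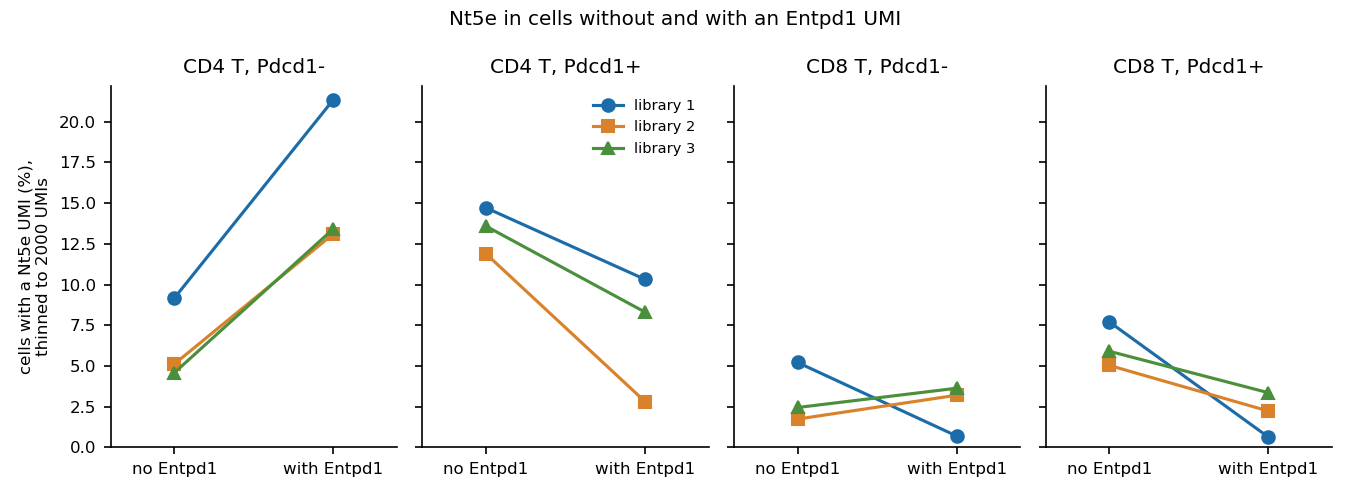
Percent of cells with an Nt5e UMI after thinning to 2000 UMIs (y axes) among cells without and with an Entpd1 UMI (x axis), for CD4 and CD8 T cells without and with a Pdcd1 UMI; each line is 1 library. All 3 lines go up in Pdcd1- CD4 T cells and down in Pdcd1+ CD4 T cells and Pdcd1+ CD8 T cells.

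Of the other genes of the pathway, 51 were listed and 50 were in the files. Between Tregs and CD4+ T cells, 2 of 33 tested were called, 6.06% against 5.77% of all genes. Cd38, an ectoenzyme that consumes NAD, was higher in Tregs (19.1 against 10.2 CPM, log2 0.92, edgeR adjusted p = 0.0312) and the cAMP-cutting phosphodiesterase gene Pde3b lower (log2 -0.84, edgeR adjusted p = 0.00828). CD8+ and CD4+ T cells differed in 3 of 33 (9.09% against 11.2%), with Gnas, the stimulatory G protein, higher and Adcy7 and Crem lower in CD8+ T cells. Tregs differed from CD8+ T cells in 5 of 33 (15.2% against 16.7%), with Art2b (20.8 against 9.69 CPM, log2 0.92, edgeR adjusted p = 0.0330) and Crem higher and Lrrc8a, Pde3b and Enpp1 lower. The median log2 difference of the list was 0.06, -0.01 and 0.07 in these 3 comparisons, close to that of all genes, and the shares called were near those of all genes.

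B cells differed from T cells in 21 of 33 pathway genes, 8 higher and 13 lower, 63.6% against 56.8% of all genes. Cd38 was at 45.7 CPM in B cells against 14.01 in T cells (log2 1.89). Alpl, a phosphatase that also cuts AMP, was higher too (log2 3.00), at a low level. It stood at 2.20 CPM from 72 UMIs in B cells, and at 0.229, 0.257 and 0.512 CPM in CD8+ T cells, CD4+ T cells and Tregs. Adk, the kinase that returns adenosine to AMP inside cells, was at 25.8 against 178 CPM (log2 -2.62), and Art2b had a log2 difference of -5.44.

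Inflammasome genes, which act downstream of P2X7, were higher in macrophages. Against T cells, 13 of 33 pathway genes were higher and 8 lower, 63.6% against 35.9% of all genes. Of these genes P2ry6, P2ry12 and Bst1 passed the count filter only through macrophages, and of the other 30 tested 10 were higher and 8 lower. In this comparison 5 of the 6 inflammasome genes were among the higher ones. Nlrp3, the sensor, was at 403 against 2.05 CPM (log2 7.74) and Il1b at 751 against 26.1 CPM (log2 5.18). P2ry6, a receptor for UDP, was at 124 against 0.568 CPM, given as levels only, P2rx4 was at 102 against 22.9 CPM (log2 1.99) and the nucleoside transporter gene Slc29a3 at 148 against 8.77 CPM (log2 4.13). Among the lower ones were P2ry10 (15.1 against 310 CPM, log2 -4.41), Adk (log2 -3.44) and Crem (log2 -3.50). Against B cells, 12 of 33 were higher and 7 lower (57.6% against 36.0%), or 9 and 7 of 30 without P2ry6, P2ry12 and Bst1.

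Within classes, the pathway genes that differed with Pdcd1 numbered 9 of 29 in CD8+ T cells (4 higher, 5 lower; 31.0% against 13.7% of all genes), 12 of 29 in CD4+ T cells (6 higher, 6 lower; 41.4% against 15.6%) and 0 of 29 in Tregs (against 0.511%), where 3 stood at an unadjusted p under 0.05. Cd38 and Gnas were called higher, and Lrrc8a, Pde4b, Pde3b and Enpp1 lower, in CD8+ and in CD4+ T cells. Pde3b and Pde4b encode enzymes that end the cAMP signal of adenosine receptors, and Pde3b had log2 differences of -0.53 in CD8+ and -1.002 in CD4+ T cells. In the Tcf7 split 3 of 24 were called (12.5% against 5.87%), with Cd38 (log2 1.42, edgeR adjusted p = 0.00494) and Pnp higher and Adk lower in Tcf7- cells. The Izumo1r split called 8 of 29 (27.6% against 11.3%), 5 higher and 3 lower, among them Art2b (log2 0.63) and Slc29a1 (log2 0.69) higher and Pde3b lower (log2 -0.75). In B cells without Ighd 8 of 27 were called (29.6% against 10.6%), 4 in each direction, with Enpp1 (log2 1.21) and Pycard (log2 1.60) higher.

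Over the 15 sums of library and class, the genes most like each member by Pearson's r of log2(CPM + 1) were Ahnak (0.976), Ptpre (0.975) and Abr (0.970) for Entpd1, and Rab37 (0.991), Atp9a (0.987) and Nmb (0.987) for Nt5e. For Adora2a they were Reps1 (0.966), Brap (0.964) and Csnk1d (0.959), and for Adora2b Pi4k2a (0.982), Tnfrsf11a (0.982) and Akr1a1 (0.977). Ada was closest to Cdc14b (0.918), Cep85 (0.917) and Gm26782 (0.912), Dpp4 to Hscb (0.952), Brd9 (0.908) and Cdadc1 (0.904), and P2rx7 to Clip1 (0.944), Apaf1 (0.943) and Itgb2 (0.938). These points share libraries and depth, and 3 of the 5 classes are T cells, so the values describe likeness of pattern over these classes only. Adora2b passed the count filter only through macrophages and was near the detection limit in lymphocytes. Its r values therefore mostly describe macrophages against lymphocytes and are no support.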

How the data were processed

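Single cells were measured in 3 libraries (10x Genomics 3′ v3) of live CD45+ islet cells, 1 group. The deposited matrices hold the authors' raw UMI counts of 32285 genes, made per the labels with Cell Ranger 6.0.1 on mm10. Which library came from which of the 2 experiments is not given in the sources used here. A code in the labels sets library 2 apart from 1 and 3, without saying why, and calls of a member that change without library 2 are named.

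Cells with at least 1000 UMIs and under 10% mitochondrial UMIs were kept (5727, 9199 and 11216). Classes were set by UMIs. CD8+ T cells had Cd3e and at least 2 of Cd8a and Cd8b1, without Cd4. CD4+ T cells had Cd3e and Cd4, without Cd8 or Foxp3, and Tregs had Cd3e and Foxp3. B cells had at least 2 of Cd79a without Cd3e, and macrophages at least 5 of C1qa and C1qb without Cd3e and with at most 1 of Cd79a. After seeing the data, 59 cells meeting the gates of CD8+ T cells and Tregs were left out of these classes. Scrublet (scanpy 1.11.5) marked 0 cells at its own threshold and was taken not to have worked, so doublets were not removed, and an alternative left out the top 7.6% of its scores.

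Counts were summed per library and class and tested with edgeR 4.0.16 in R 4.3.3 (filterByExpr, TMM, quasi-likelihood test, library as a block, Benjamini-Hochberg over all genes tested, threshold 0.05). All classes went into the same fit, as did the Pdcd1 splits of the T cell classes, and shared an estimate of the spread. The small macrophage sums therefore entered the estimate used between T cell classes. A member under the count filter is given as not tested: Adora2b in every split within a class, and P2rx7 in the Ighd split. Classes of a library come from the same pooled mice, which pairs them. Their deviations from the class means correlated within libraries (mean r 0.29 over 30 pairs of classes). The mean across libraries (-0.13) follows from this, since class means were taken out, and is no separate evidence. Counts were also drawn with each gene at its mean share over all sums, without differences between classes or libraries except in 200 changed genes. Between Tregs and CD4+ T cells (12099 genes) the test recovered 66.5% of those changed by a log2 of 1, with 14 false calls. It recovered 90% of those changed by 2, with 8 false calls. In the Tcf7 split (8460 genes) these were 77.5% with 20 and 100% with 10 false calls. The real sums differ between classes and libraries, so these rates need not hold for them.

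Shares of cells are exact expectations after thinning each cell to 2000 UMIs, which left out 1 to 43 cells a class, and were compared by exact two-sided sign flips over 3 libraries. Of 42 such comparisons of members between classes, 26 had 1 sign in all libraries. For 3 libraries 1 sign in all gives at best p = 0.25 by exact sign flips. The comparisons share genes and classes, and macrophages held no Nt5e UMI, which fixed the sign there. No share over all genes is given, so the count is no support. DESeq2 1.42.0 was an alternative. Intervals and floors (3 UMIs) cover counting error only.

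The members were named in advance of this work and the lists were chosen with earlier results of these data known, among them the presence of Entpd1 in terminally differentiated CD8+ T cells, which is no independent support here. Named are the 7 members, the pathway genes past the test, and the 3 genes most like each member by Pearson's r over the 15 sums. Splits by a UMI of Pdcd1, Tcf7, Izumo1r or Ighd also sort cells by depth. Art2a of the pathway list had no row. Intervals are at the 95% level.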

Additional observations from a re-analysis of the deposited data

Results flagged for a closer look

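Part of the members' signal lay in the 10469 cells that met no class and enter no comparison above. They made up 36.4%, 38.4% and 43.2% of the cells kept in libraries 1, 2 and 3. They held 28.0% of the Entpd1 UMIs, 23.4% of Nt5e, 33.3% of Adora2a, 68.2% of Adora2b, 43.8% of Ada, 38.1% of Dpp4 and 33.9% of P2rx7. The shares of Entpd1, Nt5e, Adora2a and P2rx7 UMIs lay below each of these shares of cells. That of Ada was close to the highest of them, and that of Adora2b was above all. Among the cells of no class, 225 had 2 or more UMIs of the myeloid genes Cd68, Csf1r and Lyz2 and no T or B cell marker. They had Entpd1 at 64.0 ± 7.26 CPM, Dpp4 at 76.8 ± 29.8 CPM and Adora2b at 23.4 ± 17.7 CPM, with 55 of the 151 Adora2b UMIs of all cells, and 1 Nt5e UMI. The 8224 unclassed cells with a T cell marker and no B cell marker had Nt5e at 23.7 ± 9.85 CPM, Ada at 16.1 ± 7.84 CPM and Adora2a at 40.3 ± 3.28 CPM.

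The share of cells with Nt5e differed between cells with and without Entpd1 by 9.67 percentage points in Pdcd1- CD4+ T cells and by -6.25 points in Pdcd1+ CD4+ T cells, with every library on 1 side in each. The difference between these values was tested by exact sign flips, where 3 libraries cannot go below p = 0.25, the value reached. With the strict gate the values were 11.04 and -7.28 points, without the top Scrublet scores 10.5 and -7.22, and after thinning to 1000 UMIs 5.16 and -4.10.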

How the results depend on the processing

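Of 35 calls of a member among 89 tests, 18 were kept under every alternative run. Of 54 results that were not called, 21 stayed uncalled and kept their sign under all. The rest gained a call or only changed sign under some alternative. The 35 include the calls of Adora2b in macrophages against T and against B cells, which are not used as support. Of these, the call against B cells was among the 18 kept. Entpd1 kept its calls by Pdcd1 in CD8+ (log2 1.30 to 2.40) and CD4+ T cells (0.93 to 1.72) and by Tcf7. Over all alternatives, 952 values of members kept direction and side of the threshold, 40 lost a call, 27 gained one and 32 changed sign where neither fit made a call. Ada in B against T cells reversed, to -1.67 with the study's cell limits and to -0.73 in B cells under 5 Jchain UMIs. The cause was not tested.

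Leaving out the replicate block, which pairs classes of the same mice, took the genes called from 698 to 105 (Tregs against CD4+ T cells), 1350 to 425 (CD8+ against CD4+), 2017 to 781 (Tregs against CD8+), 1473 to 191, 1675 to 180 and 55 to 1 (Pdcd1 in CD8+, CD4+ and Tregs), 2 to 1 and 38 to 0 (differences of the Pdcd1 contrast, CD8+ and Tregs minus CD4+; 369 at an unadjusted p under 0.05 in edgeR for the latter), 497 to 6 (Tcf7), 1201 to 1 (Izumo1r) and 1068 to 127 (Ighd). Without the block the calls of Nt5e by Pdcd1 in CD8+ and CD4+ T cells, of Dpp4 by Pdcd1 in CD4+ T cells, of Nt5e and Adora2a by Izumo1r, of Ada and Adora2a by Ighd, of Adora2a in CD8+ against CD4+ T cells and of Adora2a, P2rx7 and Ada in Tregs against CD8+ T cells were lost. The study's cell limits also lost Adora2a in CD8+ against CD4+ T cells and by Ighd and Dpp4 by Pdcd1 in CD4+ T cells, and DESeq2 lost Adora2a by Ighd.

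In the same order of comparisons, leaving out 1 library each gave 124 to 1130, 445 to 1648, 771 to 2466, 357 to 1762, 325 to 2288, 1 to 181, 0 to 106, 0 to 398, 312 to 529, 494 to 2208 and 681 to 1231 genes. The counts of 0 came with 309, 473 and 616 genes at an unadjusted p under 0.05. With no count filter 1164 genes were called between Tregs and CD4+ T cells, 304 by Pdcd1 in Tregs, 184 and 393 in its differences and 1664 by Ighd. DESeq2 called 103 by Pdcd1 in Tregs, 17 (29.4% of them higher, against 0%) and 123 in its differences, 174 by Tcf7, 471 by Izumo1r and 513 by Ighd. The study's cell limits gave 670 (CD8+ against CD4+), 1319 (Tregs against CD8+), 754 and 27 (Pdcd1 in CD8+ and Tregs), 12 (its difference, CD8+), 56 (Tcf7), 691 (Izumo1r) and 35 (Ighd). The difference of the Pdcd1 contrast between CD8+ and CD4+ T cells had 0 calls with the strict gate, without the top Scrublet scores and with cells of both gates counted in both classes, with 644, 711 and 691 genes at an unadjusted p under 0.05. B cells under 5 Jchain UMIs gave 360 genes by Ighd. Macrophage contrasts were not run with the strict gate or the study's cell limits, which left a library under 10 cells.

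The difference in Nt5e between cells with and without Entpd1 moved from 2.29 to 6.80 points in CD4+ T cells without thinning, from 0.594 to 2.74 (1000 UMIs) and 5.92 (not thinned) in Tregs, and from 0.621 to 0.253 and 2.67 in B cells. Depth limits Adora2b, with 151 UMIs in all cells, and the 68 macrophages.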

Other observations

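Among B cells, the 136 with 5 or more Jchain UMIs, a limit chosen after seeing the data, had Xbp1, the plasma cell factor, at 628 ± 115 CPM against 72.7 ± 7.85 CPM in the other 4800. Dpp4 was at 5.11 ± 2.05 against 23.5 ± 5.64 CPM, Nt5e at 14.5 ± 5.13 against 7.80 ± 1.24 CPM, and Cd3d, a T cell marker, at 6.56 ± 5.37 against 24.3 ± 7.15 CPM. P2rx7 had 2 UMIs in them.

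Cells of no class with a B cell marker and no T cell marker numbered 128 and had Adora2b at 24.7 ± 21.4 CPM from 19 UMIs. Cells of no class with none of these markers numbered 484 and had Ada at 33.8 ± 10.2 CPM and Dpp4 at 48.4 ± 29.1 CPM.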
